A study of Mus musculus with 6 samples.

Results

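The 10 genes described here encode interleukins and colony-stimulating factors: the colony-stimulating factors Csf1, Csf2 and Csf3, the interleukin 1 family members Il1a, Il1b and Il33, the interleukin 6 family members Il6, Lif and Il11, and Il15. They were chosen by symbol from the table of RefSeq transcripts, in which they are 10 of 20275 coding genes and have 14 rows. For each gene the row with the highest mean over all columns was taken. RNA was sequenced from primary wildtype (WT) mouse embryonic fibroblasts (MEFs) left untreated or given 20 ng/ml of TNFα for 1.5, 6 or 24 hr, with 1 library per time, and the histone mark H3K4me3, which lies at the starts of active genes, was mapped without TNFα by ChIP-seq (1 library and its input). All groups shared 1 kind of cell, MEFs from littermate embryos of 13.5 days with C57BL/6x 129 as strain, used at passage 4, and differed by their labels only in the time with TNFα. The label of the 24 hr library describes chromatin in its extraction text, while its other fields and its columns are those of RNA-seq.

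Fibroblasts are a source of cytokines that recruit and sustain blood cells. TNFα binds its receptor and frees NF-κB, a family of transcription factors that enters the nucleus and acts on the promoters of many cytokine genes, while AP-1 and C/EBP factors act on several of the same promoters. The proteins encoded by the 10 genes act through receptors of several kinds. Csf1 has a receptor tyrosine kinase, and the interleukin 1 family has receptors with a Toll-like signalling domain. Csf2, Csf3, Il15 and the interleukin 6 family have cytokine receptors that signal through Janus kinases. The interleukin 6 family shares a signalling chain.

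Values are given as RPKM, reads per kilobase of transcript and per unit of sequencing depth, so that genes of different length can be compared. Each library has a pair of columns, R1 and R2, which the sources used here do not explain and which were not treated as replicates. With 1 library per time there is no replicate error and no test, and a difference of at least 2-fold is a description of these libraries. The number of reads behind each value was estimated from the steps between low values, and intervals given as 95% counting intervals are exact (Clopper-Pearson), rest on those estimates, cover counting error only and compare libraries, not conditions. On this estimate the depths at 1.5, 6 and 24 hr were 1.04, 0.878 and 1.18 relative to the untreated library. Over genes with an average RPKM above 1 the log2 ratio to untreated had a median of 0.45, -0.74 and 0.11 in the same order, so levels at 6 hr are low across the table. Its part in the values at 6 hr was not tested, and directions that turn when the libraries are rescaled are named below.

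Before TNFα, 3 of the 10 genes, Csf1, Lif and Il11, had an H3K4me3 peak within 1 kb of an annotated coding start, beside 54.2% of 19724 coding genes. In mm9 coordinates the Csf1 peak was chr3:107558521-107564295, reaching from inside this minus-strand gene to beyond its start, with 2518 tags and a fold enrichment of 61.05. The Lif peak was chr11:4165366-4169344, with 956 tags and a fold enrichment of 44.81, and it lay inside the gene, over the start of its shorter annotated transcript and 7.81 kb from the start of the longer one. The Il11 peak was chr7:4727891-4730519, with 347 tags and a fold enrichment of 25.82, over the proximal of its annotated starts and 3.94 kb from the distal one. By tags the Csf1 peak stood at the 96.1 percentile of 11157 peaks, the Lif peak at 43.7 and the Il11 peak at 8.83. For the other 7 genes the nearest peak was 11.5 kb away for Il1a, 16.1 kb for Csf3, 58.7 kb for Il6, 72.7 kb for Il1b, 83.7 kb for Il33, 146.5 kb for Csf2 and 369 kb for Il15. The nearest peak to Il1a and to Il1b, neighbours on chromosome 2, was the same one.

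The bases upstream of 4 starts are shown because a peak covers them (Csf1, the proximal start of Il11) or because they hold the motifs searched (Lif, Il6). Each is the 250 bases before the RefSeq start in GRCm38.p6, on the strand of the gene, with matches to the NF-κB consensus or to the AP-1 motif TGANTCA in capitals. With the 50 bases after the start added, each matched exactly 1 place in the mm9 sequence around its gene, the only stretch searched. The Csf1 sequence is chr3:107760470-107760719, minus strand.
Csf1: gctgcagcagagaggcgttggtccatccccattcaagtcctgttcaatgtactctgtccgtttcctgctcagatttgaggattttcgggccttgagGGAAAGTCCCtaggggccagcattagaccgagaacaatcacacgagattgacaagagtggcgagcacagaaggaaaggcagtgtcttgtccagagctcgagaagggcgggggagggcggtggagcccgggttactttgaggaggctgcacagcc
The Il11 sequence before the proximal start is chr7:4778142-4778391, minus strand.
Il11: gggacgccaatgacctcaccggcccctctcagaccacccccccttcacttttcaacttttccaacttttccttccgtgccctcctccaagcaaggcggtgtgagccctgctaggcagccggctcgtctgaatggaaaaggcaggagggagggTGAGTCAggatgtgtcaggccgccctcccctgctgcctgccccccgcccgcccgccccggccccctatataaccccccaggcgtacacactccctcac
The Lif sequence is chr11:4257318-4257567, plus strand, before the distal start that has no peak.
Lif: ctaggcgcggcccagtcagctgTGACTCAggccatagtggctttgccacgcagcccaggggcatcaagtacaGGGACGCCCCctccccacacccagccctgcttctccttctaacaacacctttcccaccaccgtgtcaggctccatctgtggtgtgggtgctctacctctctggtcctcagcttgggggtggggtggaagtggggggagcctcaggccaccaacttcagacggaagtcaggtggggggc
The Il6 sequence is chr5:30012864-30013113, plus strand.
Il6: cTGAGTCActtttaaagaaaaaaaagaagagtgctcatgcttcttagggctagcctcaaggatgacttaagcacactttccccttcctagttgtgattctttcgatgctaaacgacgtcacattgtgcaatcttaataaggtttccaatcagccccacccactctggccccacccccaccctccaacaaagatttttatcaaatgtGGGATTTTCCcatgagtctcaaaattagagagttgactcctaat

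A promoter was found in the RefSeq table for 8 of the 10 genes, all but Csf3 and Il15. An NF-κB consensus match on either strand stood in 3 of them, 154 bases before the start of Csf1, 178 before that of Lif and 44 before that of Il6, and in 8.46% of 32851 RefSeq promoters. The AP-1 motif stood in 4, Il1a at 12 bases, Il11 at 98, Lif at 228 and Il6 at 249 before the start, and in 7.81% of all promoters. The letters TATAAA on either strand stood in Il1a (32 bases before the start), Il1b (31) and Il33 (29 at 1 of its starts and 203 at the other), and in 13.6% of all. The C/EBP motif TTGCNNAA stood in Il6 (128), Csf2 (145) and Il33 (85), and in 10.8% of all. No match of 1 motif shared bases with a match of another. A match is a description of the letters and not of binding. A wider search took 1000 bases before to 50 after the most upstream mm9 start of each gene. The NF-κB consensus stood in 6 of 10 genes, Csf1, Csf3, Il1b, Il6, Lif and Il11, beside 21.4% of coding genes. That of Il11 lay before its distal start, which has no peak. AP-1, TATAAA and C/EBP also stood in 6 of 10 each, beside 24.2%, 45.4% and 36.0% of coding genes.

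Csf1 encodes macrophage colony-stimulating factor (M-CSF), which sustains monocytes and macrophages. Its level was 6.64 RPKM (R1) and 6.19 (R2) in the untreated library, 38.6 and 36.6 at 1.5 hr, 25.2 and 21.8 at 6 hr, and 21.3 and 19.6 at 24 hr. All treated columns were above both untreated columns. Csf1 was 5.86-fold higher at 1.5 hr (log2 2.55, counting interval 2.49 to 2.61), 3.66-fold at 6 hr (log2 1.87, 1.80 to 1.94) and 3.19-fold at 24 hr (log2 1.67, 1.61 to 1.74). About 2415 reads lay behind the untreated value and 14759 behind that at 1.5 hr. It was the most abundant of the 10 transcripts at every time and held between 83.7% and 88.7% of their summed RPKM. The time of its highest value was 1.5 hr as deposited and 6 hr when libraries were scaled by the median of ratios, with log2 ratios of 2.14, 2.68 and 1.62 in order of time. The 3 rows of the gene, which share most of their exons, had log2 ratios between 2.55 and 2.58 at 1.5 hr.

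Csf2 encodes GM-CSF, a growth factor of granulocytes and macrophages. It was listed at 0 in both untreated columns, at 0.277 (R1) and 0.288 (R2) RPKM at 1.5 hr, at 0.0126 and 0.0118 at 6 hr, and at 0.0299 and 0.0172 at 24 hr. It was thus seen at 1.5 hr almost alone, and no fold to the untreated library is given since that library is listed at 0. Estimated reads were 0, 21, 1 and 2 in order of time. The value at 6 hr was 23.2-fold below that at 1.5 hr (log2 -4.53, counting interval -9.52 to -1.51, and -3.46 to -3.32 under the 3 scalings). The value at 24 hr was 12.0-fold below that at 1.5 hr (log2 -3.58, -6.71 to -1.54).

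Csf3 encodes G-CSF, the growth factor of neutrophils, and read lower after TNFα than before. Its level was 0.135 (R1) and 0.128 (R2) RPKM untreated, 0.0388 and 0.0392 at 1.5 hr, 0.0177 and 0.0180 at 6 hr, and 0.0302 and 0.0269 at 24 hr. Both untreated columns were above every treated column. Its log2 ratio was -1.75 (counting interval -3.62 to -0.33) at 1.5 hr, -2.88 (-6.06 to -0.83) at 6 hr and -2.20 (-4.35 to -0.71) at 24 hr, from about 17 reads untreated and 5, 2 and 4 after TNFα. The direction was the same with libraries scaled to a common sum, by the median of ratios or by the trimmed mean.

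**Figure D1:**
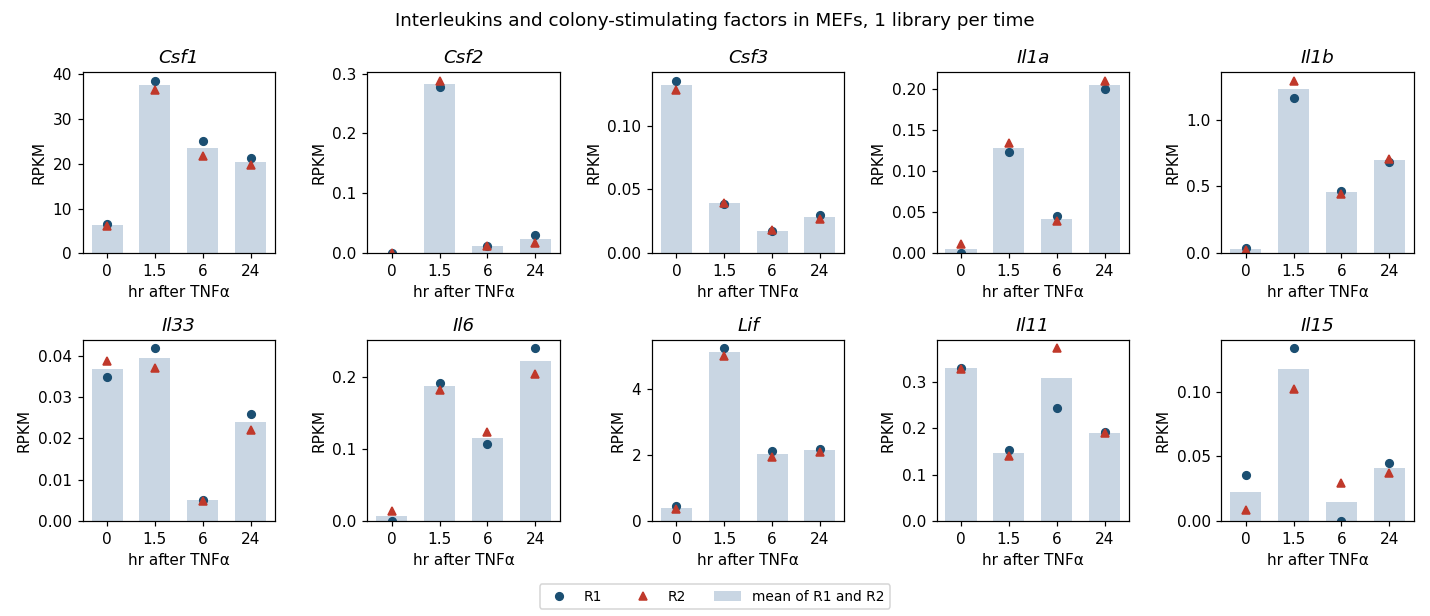
RPKM (linear axis from 0, 1 scale per panel) of the 10 genes before and at 1.5, 6 and 24 hr after TNFα, with the mean of the R1 and R2 columns as a bar and each column as a point. Csf1 spans 6.19 to 38.6 RPKM, Csf2 stands at 1.5 hr almost alone, and Csf3 is highest before treatment.

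Lif encodes leukemia inhibitory factor, which signals through LIFR and gp130. Its level was 0.443 (R1) and 0.380 (R2) RPKM untreated, 5.24 and 5.03 at 1.5 hr, 2.13 and 1.94 at 6 hr, and 2.20 and 2.09 at 24 hr. It was higher at each time after TNFα than before, and the 6 hr and 24 hr columns overlapped. Lif was 12.5-fold higher at 1.5 hr (log2 3.64, counting interval 3.40 to 3.90), 4.94-fold at 6 hr (log2 2.31, 2.05 to 2.58) and 5.21-fold at 24 hr (log2 2.38, 2.13 to 2.64), from about 149 reads untreated and 1943 at 1.5 hr. As deposited, the step from 6 to 24 hr was a log2 ratio of 0.08 (-0.07 to 0.22), within counting error, but under the 3 scalings it was -0.78 to -0.70, outside counting error, with the ratio to untreated at 6 hr at 3.05 to 3.13. Lif had rank 2 of the 10 by level at every time.

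Il6 encodes interleukin 6, which drives the acute phase response. It was listed at 0 in R1 and at 0.0133 RPKM in R2 of the untreated library, and read 0.191 and 0.181 at 1.5 hr, 0.107 and 0.123 at 6 hr, and 0.239 and 0.204 at 24 hr. Every treated column was above both untreated columns, but at 24 hr its 0.221 RPKM (mean of R1 and R2) stood only at the 48.2 percentile of coding genes. The log2 ratio was 4.80 (counting interval 1.54 to 9.57) at 1.5 hr, 4.10 (0.70 to 8.95) at 6 hr and 5.05 (1.86 to 9.82) at 24 hr, and these wide intervals come from about 1 read in the untreated library against 19, 10 and 26. The values at 1.5 and 24 hr differed by a log2 ratio of 0.25 (-0.63 to 1.21), so which of them was higher could not be told at this depth.

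Il11 encodes interleukin 11, a product of stromal cells. Its level was 0.331 (R1) and 0.329 (R2) RPKM untreated, 0.154 and 0.141 at 1.5 hr, 0.244 and 0.373 at 6 hr, and 0.191 and 0.190 at 24 hr. The columns at 1.5 and 24 hr were below both untreated columns, and those at 6 hr stood on either side of them. The log2 ratio was -1.16 (counting interval -2.10 to -0.32) at 1.5 hr, -0.10 (-0.80 to 0.66) at 6 hr and -0.79 (-1.60 to -0.03) at 24 hr. At 6 hr the sign turned under all 3 scalings, to between 0.64 and 0.73. About 37 reads lay behind the untreated value and 17 behind that at 1.5 hr. Within the interleukin 6 family, then, Lif and Il6 were above and Il11 below the untreated level at 1.5 hr.

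Il1b encodes interleukin 1β, made as a precursor that caspase-1 cleaves. Its level was 0.0419 (R1) and 0.0249 (R2) RPKM untreated, 1.16 and 1.29 at 1.5 hr, 0.467 and 0.444 at 6 hr, and 0.687 and 0.709 at 24 hr. All treated columns were at least 10 times the higher untreated column. The log2 ratio was 5.20 (counting interval 3.85 to 7.13) at 1.5 hr, 3.77 (2.35 to 5.73) at 6 hr and 4.39 (3.02 to 6.33) at 24 hr, from about 4 reads untreated and 157, 49 and 101 after TNFα. From 6 to 24 hr the deposited values were 1.53-fold higher (1.08 to 2.21), but the direction turned under all 3 scalings (log2 -0.24 to -0.16), where the counting intervals span 0. By level Il1b had rank 6 of the 10 before TNFα and rank 3 at each time after it.

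Il1a encodes interleukin 1α, which binds the same receptor. It was listed at 0 in R1 and at 0.0109 RPKM in R2 of the untreated library, and read 0.122 and 0.134 at 1.5 hr, 0.0457 and 0.0386 at 6 hr, and 0.200 and 0.210 at 24 hr. Its highest columns were those of 24 hr. The log2 ratio of 24 hr to 1.5 hr was 0.68 (-0.09 to 1.45) as deposited, which does not exceed counting error, and 0.98 to 1.04 under the 3 scalings. The log2 ratio was 4.56 (counting interval 1.91 to 9.89) at 1.5 hr, 2.95 (0.03 to 8.49) at 6 hr and 5.23 (2.63 to 10.5) at 24 hr, from about 1 read untreated and 24, 7 and 43. From 6 to 24 hr it was 4.86-fold higher (2.04 to 12.1), a log2 ratio of 2.28 that became 1.42 to 1.50 under the scalings.

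Il33 encodes interleukin 33, a nuclear cytokine and the ligand of ST2. Its level was 0.0347 (R1) and 0.0386 (R2) RPKM untreated, 0.0417 and 0.0369 at 1.5 hr, 0.00513 and 0.00483 at 6 hr, and 0.0259 and 0.0219 at 24 hr. The untreated and 1.5 hr columns overlapped, and the 6 hr columns were the lowest. The log2 ratio was 0.10 (counting interval -1.44 to 1.69) at 1.5 hr, where it turned negative under all 3 scalings (-0.31 to -0.15), -2.88 (-8.28 to 0.09) at 6 hr and -0.62 (-2.46 to 1.07) at 24 hr. With about 8, 9, 1 and 6 reads no difference from the untreated library was detectable at this depth.

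Il15 encodes interleukin 15, a growth factor of natural killer cells and memory T cells. Its level was 0.0355 (R1) and 0.00883 (R2) RPKM untreated, 0.133 and 0.102 at 1.5 hr, 0 and 0.0294 at 6 hr, and 0.0446 and 0.0374 at 24 hr. Both columns at 1.5 hr were above all the others. The log2 ratio was 2.41 (counting interval 0.77 to 4.34) at 1.5 hr, -0.59 (-4.28 to 1.99) at 6 hr, where it turned positive under all 3 scalings, and 0.89 (-1.14 to 2.95) at 24 hr, from about 4 reads untreated and 21, 2 and 8.

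**Figure D2:**
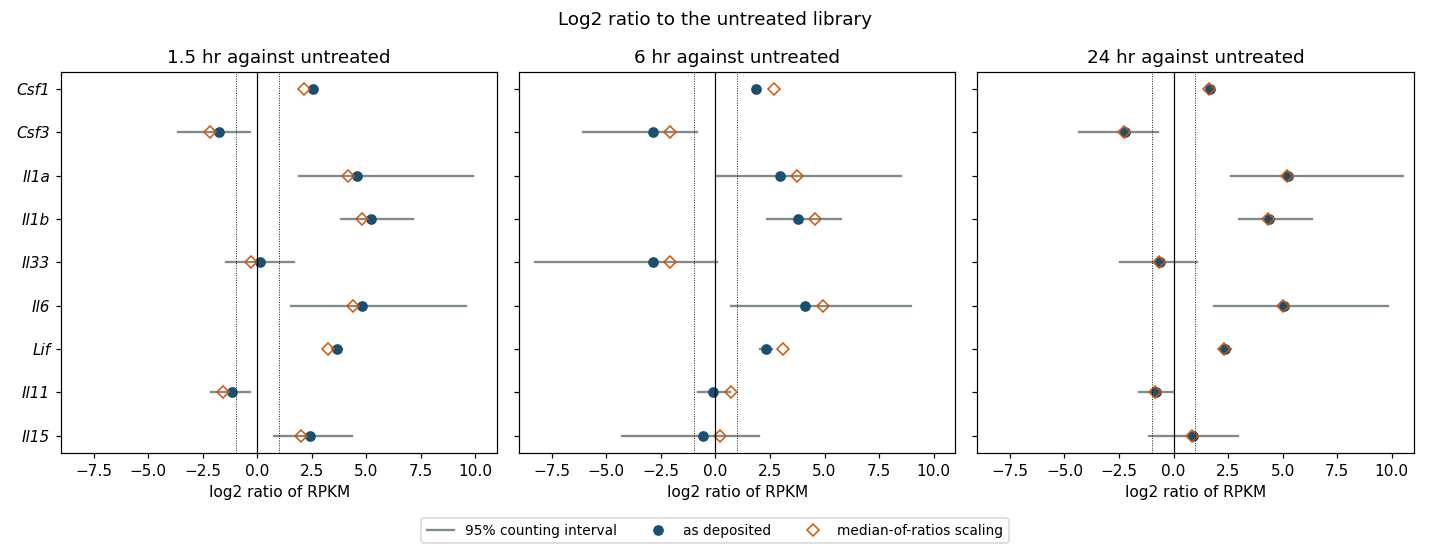
Log2 ratio of RPKM to the untreated library for the 9 genes above 0 there, as deposited (filled circles, with the 95% counting interval as a line, shorter than the symbol for Csf1) and after median-of-ratios scaling (open diamonds). Dotted lines mark a 2-fold difference. The ratios of Csf1, Lif, Il1b, Il1a and Il6 are above 1 at all 3 times and those of Csf3 below -1.

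Of the 9 genes above 0 in the untreated library, 6 were at least 2-fold higher at 1.5 hr (Csf1, Lif, Il1a, Il1b, Il6, Il15), beside 27.3% of 15877 coding genes, and 2 were at least 2-fold lower (Csf3, Il11), beside 18.0%. At 6 hr 5 were higher (Csf1, Lif, Il1a, Il1b, Il6), beside 3.21% of coding genes, and 2 were lower (Csf3, Il33), beside 40.1%. At 24 hr the same 5 as at 6 hr were higher, beside 15.4%, and Csf3 alone was lower, beside 22.8%. With the libraries scaled by the median of ratios the members in each count were the same, while the shares of coding genes became 15.6% higher and 25.4% lower at 1.5 hr and 10.5% higher and 15.7% lower at 6 hr. In order of time the 9 had a median log2 ratio of 2.55, 1.87 and 1.67, against 0.38, -0.75 and 0.04 over the coding genes. The tenth gene, Csf2, has no ratio. Only Csf1 and Lif had an average RPKM above 1. That average includes the treated libraries, and Lif, at 0.412 RPKM untreated, passed only through its treated values. Csf1 and Lif were at least 2-fold higher at each time, beside 29.9%, 1.74% and 16.8% of 6566 coding genes over that level. Of those coding genes 7.83%, 31.6% and 12.7% were lower. For Lif the call is thus partly set by the filter. The other 7 with a ratio rest on 1 to 37 reads in the untreated library. Of these 7, 4, 3 and 3 were higher at 1.5, 6 and 24 hr, beside 25.5%, 4.24% and 14.4% of 9311 coding genes of such level, and 2, 2 and 1 were lower, beside 25.1%, 46.1% and 30%.

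By time, the highest value was at 1.5 hr for 6 of the 10 genes (Csf1, Csf2, Lif, Il1b, Il33, Il15), at 24 hr for 2 (Il6, Il1a) and in the untreated library for 2 (Csf3, Il11). None had its highest value at 6 hr. Over 16757 coding genes the shares were 51.1% at 1.5 hr, 10.4% at 24 hr, 33.5% untreated and 5.01% at 6 hr. Under the median of ratios the highest value moved to 6 hr for Csf1 and Il11 and to the untreated library for Il33. Steps to and from the low 6 hr library depend on the scaling. No share over all coding genes was obtained for the counts of steps that follow, so they only describe these genes. Over genes with an average RPKM above 1, the median log2 ratio to untreated was 0.45 at 1.5 hr and -0.74 at 6 hr. From 1.5 to 6 hr the counting interval of the deposited ratio lay below 0 for 7 genes, Csf1, Csf2, Lif, Il1a, Il1b, Il33 and Il15, and above 0 for Il11 (2.09-fold higher, 1.16 to 4.17). Scaled by the median of ratios it lay below 0 for Csf2 only and above 0 for Csf1 and Il11, with a log2 ratio of 0.54 for Csf1 (-0.68 as deposited) and -0.12 for Lif (-1.34 as deposited). From 6 to 24 hr it lay above 0 for Il1a and Il1b and below 0 for Csf1 as deposited (log2 -0.20, -0.24 to -0.15, for Csf1), and above 0 for Il1a and below 0 for Csf1, Lif and Il11 under each of the 3 scalings.

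For the 6 members above 0 in every column, the genes nearest in 6 log2 ratios (3 times, both columns) were sought among 6564 coding genes with an average RPKM above 1. Nearest to Lif were Nfkbie, an inhibitor of NF-κB (distance 0.397), the chemokine Cxcl1 (0.603) and the adhesion molecule Icam1 (0.819). Cxcl1 had log2 ratios of 3.61, 2.36 and 2.42 at 1.5, 6 and 24 hr, beside 3.64, 2.31 and 2.38 for Lif. Il6, Il1a, Il15 and Csf2, listed at 0 in a column, were not compared. Nearest to Csf1 were Relb, an NF-κB subunit (distance 0.999), Cacybp (1.10) and H2-gs10 (1.14). Nearest to Il1b were Rnd1 (1.06), the chemokine Ccl7 (1.37) and Tnfaip3, a deubiquitinase that restrains NF-κB (1.43). Nearest to Il11 were Cuedc1 (0.433), Fam189b (0.496) and Rfng (0.539), to Csf3 Dhrs3 (0.979), Fxyd2 (1.10) and Trem2 (1.25), and to Il33 1810043H04Rik (0.794), Gm16381 (1.01) and Vkorc1 (1.05). Counting error was not carried into these distances. Reads in order of time were about 8, 9, 1 and 6 for Il33 and 17, 5, 2 and 4 for Csf3. Il1b had about 4 untreated, and Il11 37 untreated and 17 at 1.5 hr. The genes named as nearest to these members are therefore uncertain.

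The receptor subunits of the 10 ligands were all in the table, 17 of 17, and 15 had an average RPKM above 0.1. In order of time, both columns were at least 2-fold higher for 7, 3 and 6 of these 15, and lower for 0, 2 and 2. Over all coding genes with an average RPKM above 0.1, 29.3%, 1.66% and 15.5% were higher by the same rule and 8.47%, 28.9% and 12.8% lower. The average includes the treated libraries, and Il1r2, at 0.0526 RPKM untreated, passed only through treated values. Without the filter the 17 gave the same counts higher and 0, 4 and 3 lower. The 17 had a median log2 ratio of 0.27, -0.73 and -0.51.

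Of the receptors of the interleukin 1 family, the 4 given here read above their untreated level at each time (means of R1 and R2). For Il1r1 the log2 ratio at 6 hr was only 0.25. Another, Il1rl2, taken up below, was under its untreated level at 6 hr (log2 -0.20, and 0.54 to 0.63 under the scalings). No share of coding genes above untreated at each time was obtained. Il1rl1, which encodes ST2, the receptor of interleukin 33, was at 2.23 RPKM untreated, 20.7 at 1.5 hr, 6.77 at 6 hr and 19.6 at 24 hr (log2 3.22, 1.60 and 3.14), while its ligand Il33 was at or under 0.0393 RPKM at all times. Il1rap, the accessory chain shared by the receptors of interleukins 1 and 33, was at 0.116, 0.358, 0.208 and 0.692 RPKM in order of time. Il1r2, the decoy receptor of interleukin 1, was at 0.0526, 0.136, 0.134 and 0.410 RPKM. Il1r1, the signalling receptor, which was named after its values were seen, was at 0.413, 1.17, 0.493 and 0.802 RPKM.

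Il15ra, which presents interleukin 15 to neighbouring cells, was at 0.566 RPKM untreated, 4.97 at 1.5 hr, 0.664 at 6 hr and 1.76 at 24 hr, and so was highest at the same time as Il15. Il2rg, the common gamma chain, was at 0.887, 2.51, 2.95 and 5.90 RPKM. Il6st, which encodes gp130, the signalling chain of the interleukin 6 family, was at 5.16, 16.5, 3.84 and 11.8 RPKM, with log2 ratios of 1.68, -0.42 and 1.20 (at 6 hr 0.32 to 0.40 under the scalings). By its deposited values Il6st was thus high at 1.5 and 24 hr and below untreated between them. Lifr, the partner of gp130 for Lif, was at 0.422, 0.453, 0.115 and 0.297 RPKM. Csf1r, the receptor of M-CSF, was at 3.44, 3.35, 1.05 and 1.45 RPKM, with log2 ratios of -1.71 at 6 hr (-0.97 to -0.88 under the scalings) and -1.25 at 24 hr. At 24 hr, then, Csf1 was 3.19-fold higher and Csf1r lower than untreated. Also lower were Il11ra1, the receptor of interleukin 11, from 11.9 to 4.58 RPKM at 24 hr, and Csf3r, from 0.0740 to 0.0167, both named after their values were seen. Il11ra1 and Il11ra2 are near-identical genes whose reads the counting could split, so their values are uncertain.

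**Figure D3:**
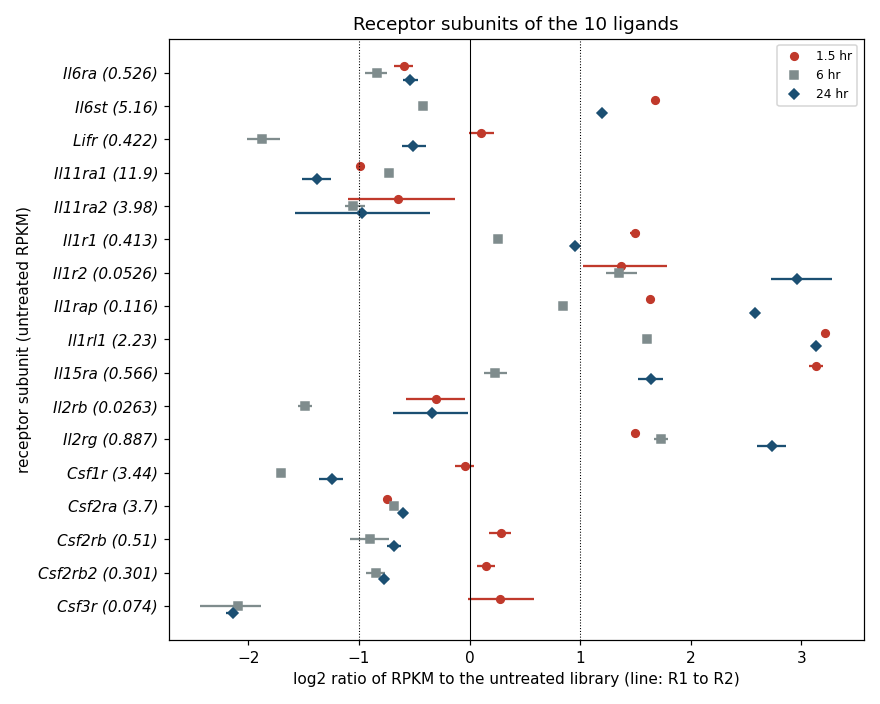
Log2 ratio of RPKM to the untreated library for 17 receptor subunits at 1.5, 6 and 24 hr, with the untreated RPKM in parentheses. Symbols are the mean of the R1 and R2 columns, lines run from R1 to R2, and dotted lines mark a 2-fold difference. Il1rl1 lies at 3.22 and 3.14 at 1.5 and 24 hr, and Csf1r at -1.71 at 6 hr.

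A list of 9 genes that inhibit, process or bind interleukin 1 and its relatives includes the receptor Il1rl2 and also Il1r2, already counted among the receptors. Of the 9, 7 had an average RPKM above 0.1. Of these, 4, 2 and 3 were at least 2-fold higher in both columns in order of time, beside 29.3%, 1.66% and 15.5% of coding genes. Lower were 0, 1 and 2, beside 8.47%, 28.9% and 12.8%. The average includes the treated libraries, for the coding genes as well. Il1r2, Casp4 and Nlrp3, among those higher at 1.5 hr, were below 0.1 RPKM untreated and passed only through treated values. The counts higher are therefore partly set by the filter. Casp4, an inflammatory caspase that senses lipopolysaccharide in the cytoplasm, was at 0.0906 RPKM untreated, 1.55 at 1.5 hr, 0.396 at 6 hr and 1.06 at 24 hr. Nlrp3, the sensor of an inflammasome, was at 0.0931 untreated and 0.496 at 1.5 hr, and Il1rl2, the receptor of the interleukin 36 group, at 0.350 and 1.16. Il18bp, which binds and blocks interleukin 18, was at 1.38 RPKM untreated and 0.436 at 24 hr, and Pycard, the inflammasome adaptor, at 1.09 and 0.361. The other ligands of these families were mostly low. Of 7 other interleukin 6 family ligands, 5 had an average RPKM above 0.1. In order of time, 0, 0 and 0 of the 5 were at least 2-fold higher in both columns, beside 29.3%, 1.66% and 15.5% of coding genes. Lower were 0, 0 and 2, beside 8.47%, 28.9% and 12.8%. Clcf1, a ligand of the ciliary neurotrophic factor receptor, was at 3.25 RPKM untreated and 1.48 at 24 hr. Of 31 other interleukins and haematopoietic cytokines, 12 were listed at 0 in every library and 6 had an average RPKM above 0.1. In order of time, 2, 0 and 2 of the 6 were at least 2-fold higher in both columns, and 2, 2 and 1 lower, beside the same shares of coding genes. Il17d passed the filter through its treated values and Thpo through its untreated one. Tslp, an epithelial and stromal cytokine, was at 0.106 RPKM untreated and 0.503 at 24 hr. Thpo, which encodes thrombopoietin, was at 0.271 untreated and 0.0704 at 1.5 hr. Flt3l was at 2.22 untreated, 0.934 at 1.5 hr and 2.14 at 6 hr (log2 -0.05, and 0.69 to 0.77 under the scalings). Of 10 symbols for other interleukin 1 family ligands, which include older and newer names of the same genes, 6 were in the table. Of these, 5 were listed at 0 everywhere. The remaining one, Il18, was at 0.188 RPKM untreated and 0.0654 at 6 hr.

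All 10 fibroblast markers were above 0 in every library, with a summed RPKM of 1061, 1049, 506 and 644 in order of time. Macrophage markers were present too: 11 of 12 were in the table and none of these was at 0, with a summed RPKM of 103 untreated and 275, 58.4 and 139.9 after TNFα. Lyz2 made up most of the difference at 1.5 hr: without it, a split chosen after the data were seen, the other 10 summed to 76.7 untreated and 103.4, 27.0 and 56.0 after TNFα. In order of time 5, 1 and 2 of the 11 were at least 2-fold higher in both columns, beside 29.3%, 1.66% and 15.5% of coding genes with an average RPKM above 0.1, and 0, 4 and 2 were lower, beside 8.47%, 28.9% and 12.8%. The general leukocyte marker Ptprc was at 0.156 RPKM untreated and 0.359 at 1.5 hr, Emr1 at 0.307 and 0.864, Cd14 at 0.731 and 6.02, Lyz2 at 26.3 and 171, and Fcer1g at 18.4 and 11.1. As deposited, the marker sums with and without Lyz2 were highest at 1.5 hr and lowest at 6 hr, where they were below untreated. The 3 scalings multiply values at 6 hr by 1.67 to 1.78, and the sums were not rescaled. Of the 10 members, 6 were highest at 1.5 hr, 2 at 24 hr and 2 untreated, beside 51.1%, 10.4% and 33.5% of coding genes. Csf1r is itself on the list of macrophage markers. The part of macrophages in the values of these genes was not tested. In bulk RNA, fewer cells of a type and less RNA per cell cannot be told apart. Endothelial markers summed to at most 0.0809 RPKM, epithelial markers to at most 0.593 and T cell markers to at most 0.257.

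The share of coding genes with an H3K4me3 peak followed the untreated level, from 1.73% of those listed at 0 and 23.0% of those up to 0.1 RPKM to 65.0%, 81.1% and 90.9% of those from 0.1 to 0.3, 0.3 to 1 and 1 to 10 RPKM. Each of the 3 members above 0.3 RPKM had a peak. Csf3, at 0.131 RPKM, had none, as did the 5 members above 0 and up to 0.1 RPKM (Il1a, Il1b, Il6, Il33, Il15) and Csf2, listed at 0. Of the members at least 2-fold higher at all 3 times, Csf1 and Lif had a peak before TNFα and Il6, Il1a and Il1b did not. Of the members at least 2-fold lower at 1.5 hr, Il11 had a peak and Csf3 did not. The 3 members with a peak were the same when only starts inside a peak counted, within 5 kb, and with an FDR of at most 1%. Only peaks with a fold enrichment of 20 or more are in the deposited list, so a weaker mark would not be seen here.

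**Figure D4:**
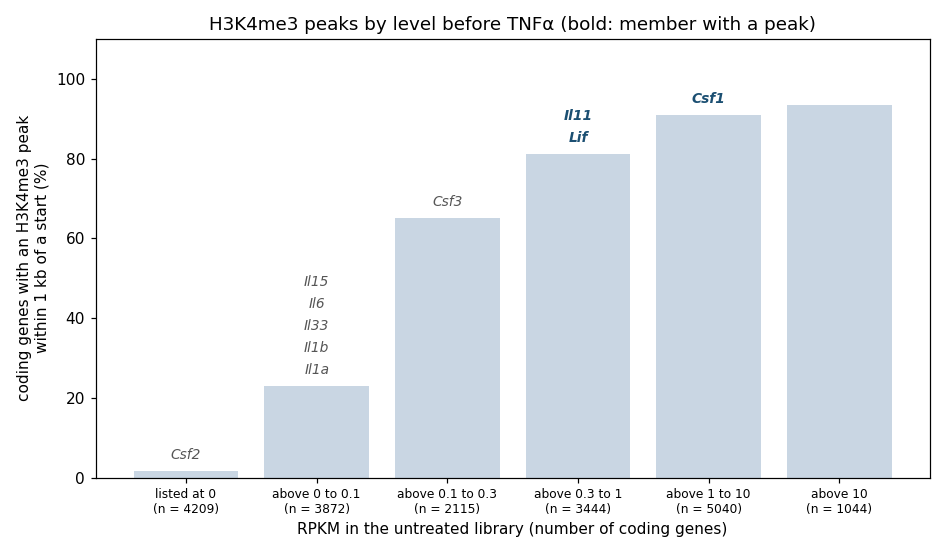
Percent of coding genes with an H3K4me3 peak within 1 kb of an annotated start in untreated MEFs, by RPKM in the untreated library, with the members of each class written above its bar. Csf1, Lif and Il11 (bold) had a peak, and Csf3 stands without one in a class where 65.0% of genes have it.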

How the data were processed

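RNA-seq libraries were polyA-selected, paired-end and directional, sequenced on an Illumina Genome Analyzer II. The authors mapped reads to mm9 with TopHat and used a script of their own to obtain RPKM for each RefSeq transcript. Columns were assigned to times through library names in the study's list of sequencing depths. The deposited RPKM values are not on the scale of the study's lists and were divided by 85.7, their median ratio to the study's RPKM list over 6312 values, which changes no ratio between libraries and no percentile but moves levels set against a threshold. No pseudocount was used. For ChIP-seq the authors used Bowtie to map and MACS to call peaks, on 1 library. Per the file headers, peaks carry tag counts, a score (-10 times log10 of p), a fold enrichment (a ratio) and an FDR in percent, and the deposited tag coverage per base (signal) was not needed.

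Reads behind a value were estimated from the value times the transcript length (GENCODE vM1, longest coding transcript), whose low values fall in steps of 1 read: between 68.5% and 74.4% of values from 0.5 to 5.5 reads were within 0.1 of a whole number. They are approximate. Starts were taken from GENCODE vM1 (mm9) and promoters from RefSeq (GRCm38.p6). Scripts were tested on simulated data (Python 3.11.15, pandas 2.3.3, scipy 1.17.1).

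The members and gene lists were chosen with earlier results of these data known. All 10 members are named. Of each other list, the genes at least 2-fold higher or lower in both columns at 1 time with an average RPKM above 0.1 could be named, up to 8 by size of the log2 ratio. The average is over all libraries, treated ones included. No authors' comparison was used.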

Additional observations from a re-analysis of the deposited data

Results flagged for a closer look

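Of the 20 related genes that could be named by the rule, 5 had both columns above untreated at 1 time and both below it at another. Over all 68 related genes on the lists there were 12. The share over all coding genes was not obtained, so these counts are not set apart from the table at large. With 1 library per time the difference was not tested, and the 6 hr library is low throughout. The log2 ratio of Il6st was 1.68, -0.42 and 1.20 at 1.5, 6 and 24 hr. In the same order that of Il1rl2 was 1.73, -0.20 and 1.20, that of Il17d 1.48, -0.89 and 1.30, and that of Il18 0.40, -1.52 and 0.12. Il27 had 1.21 at 6 hr (0.69 in R1 and 1.69 in R2) against -1.19 at 24 hr. Its level was low, at 0.115 RPKM untreated and 0 at 1.5 hr, and its ratio at 6 hr was 1.95 to 2.04 under the scalings. After rescaling of the libraries, the ratios of Il6st and Il1rl2 at 6 hr became positive, at 0.32 to 0.40 and 0.54 to 0.63, while those of Il17d and Il18 stayed below 0, and that of Il18 at 1.5 hr lay between -0.01 and 0.15. None of the 10 members met this rule.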

How the results depend on the processing

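No paired analysis was possible because each time has 1 library. For the same reason no replicate could be left out. Of 200 values of the 27 member log2 ratios under other settings, 158 stayed within the counting interval, 42 moved out of it and 0 reversed a 2-fold call. Of the 42, 28 came from a pseudocount, which pulls the ratios of low genes to 0 by its construction.

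In order of time 6, 5 and 5 members were at least 2-fold higher. They became 3, 2 and 2 with a pseudocount of 1 RPKM and 2 at each time with an average RPKM above 1, which leaves only Csf1 and Lif. That average includes the treated libraries, and Lif passed it only through them. With the R1 column alone, where Il6 and Il1a are listed at 0 before TNFα, the members higher were 3 at 6 hr and 3 at 24 hr. Counts of members lower were 2, 2 and 1, and became 0 at each time with a pseudocount of 0.1 or 1 RPKM or an average RPKM above 1. With a fold threshold of 3, 1 was lower at 1.5 hr. The 3 ways of rescaling (common sum, median of ratios, trimmed mean) multiplied the values at 6 hr by 1.67 to 1.78 and those at 1.5 hr by 0.752 to 0.841, and left the counts of members as they were. Steps between treated times were rescaled after the data were seen: the deposited log2 ratio of -1.13 for Csf3 from 1.5 to 6 hr reversed to 0.087 under the median of ratios and to 0.0018 under the trimmed mean. An NF-κB consensus match stood in 3 of 8 genes within the RefSeq promoters and in 6 of 10 within 1000 bases, a longer window. Depth limits the members below 0.1 RPKM, which rest on 8 reads or fewer before TNFα.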
